A study of Mus musculus with 9 samples.

Results

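RGS genes encode regulators of G protein signalling, and 9 of them, Rgs1, Rgs2, Rgs3, Rgs5, Rgs10, Rgs14, Rgs16, Rgs18 and Rgs19, are described here out of 49510 genes in the deposited count table. They were picked by symbol because Rgs5 had no read in the spleen and was high in the heart. The levels of Rgs5, and the contrast of heart with spleen for the whole group, are therefore a description, and no p-values are given for them. Where they enter counts of genes called, nothing is read from them. The other 12 numbered RGS genes of the table serve as the closest comparison.

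The libraries are of regulatory T cells (Tregs), the suppressive T cells marked by the transcription factor Foxp3, from the injured heart, the mediastinal lymph node that drains it (MLN) and the spleen. Each organ has 3 libraries. All mice were of the strain Foxp3-GFP, in which a fluorescent protein reports Foxp3, were 8 weeks old, and had undergone cardiac ischemia/reperfusion 3 days before, so no group here is uninjured. Cells were sorted on magnetic beads and then by fluorescence, and cDNA was amplified with a kit for very low input. Whether libraries of one organ came from separate animals or pools is not stated, so p-values measure the spread between these libraries, which may be technical.

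RGS proteins speed the hydrolysis of GTP by the alpha subunits of heterotrimeric G proteins and so shorten the signal of receptors that couple to them. In lymphocytes the best known of these receptors are chemokine and sphingosine phosphate receptors, which act through Gi and steer migration. In vessel walls, RGS proteins limit receptors that act through Gq and Gi and set contractile tone. The members fall into the small R4 proteins (Rgs1, Rgs2, Rgs3, Rgs5, Rgs16 and Rgs18), the R12 proteins (Rgs10 and Rgs14) and the RZ protein Rgs19.

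Libraries held 156194012 to 267520538 counts, and levels are given in CPM, a library's counts scaled to a common total after adjustment by trimmed mean of M-values (TMM). A count of 0 allows up to 3 counts in a library, which is 0.0104 to 0.0193 CPM and covers counting error only. In each organ 1 library had the highest scaling factor and the lowest share of B2m, namely heart 2, MLN 3 and spleen 3. In the sort's defining genes, Foxp3 was at 8.77, 38.0 and 0.24 CPM in heart libraries 1 to 3, at 41.8 to 46.3 CPM in the MLN and at 31.2 to 187 CPM in the spleen. The T cell receptor gene Cd3e was found in all 9 libraries, at 29.3 to 50.1 CPM in the heart, 53.8 to 79.0 CPM in the MLN and 97.8 to 154.7 CPM in the spleen. The interleukin-2 receptor gene Il2ra was at 160.5 to 267 CPM in the heart, 472 to 660 CPM in the MLN and 245 to 419 CPM in the spleen. Heart 3 therefore carries the Treg label with Cd3e and Il2ra present and Foxp3 below all other libraries. Markers of other cells were read in the heart libraries too: endothelial markers summed to 479 to 1322 CPM in the heart, 94.4 to 125.3 CPM in the MLN and 99.0 to 217 CPM in the spleen, neutrophil markers to 677 to 3887, 0.648 to 1.60 and 5.10 to 28.0 CPM, and cardiomyocyte markers to 126.3 to 419.9, 0 to 0.0155 and 0.18 to 1.06 CPM in the same order.

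Rgs5 was read in all 3 heart libraries and in none of the 6 lymphoid libraries. Rgs5 (ENSMUSG00000026678, chromosome 1, 169655501 to 169695813, plus strand, mm10) encodes a small RGS protein best known as a marker of pericytes and vascular smooth muscle. Its counts were 25404, 23411 and 6619 in heart libraries 1 to 3, or 142, 93.5 and 29.9 CPM, against 0 in every MLN and every spleen library. The heart mean was 88.6 ± 56.4 CPM (SD, n = 3), at least 6729-fold above the MLN and at least 6068-fold above the spleen when each empty library is set at 3 counts. In bulk libraries, fewer cells of a type and less RNA per cell cannot be told apart. Among genes tested, 1022 had no count in any spleen library and 441 of those had none in the MLN either. Rgs5 ranked 50 by heart mean among the 1022 and 28 among the 441.

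Genes with the closest pattern to Rgs5 were sought by Pearson's r of log2(CPM + 1) over the 9 libraries, among 7341 genes with a mean of at least 10 CPM. They were Pdgfrl (r = 0.9997), a secreted protein related to PDGF receptors, Dpep1 (r = 0.9995), a membrane dipeptidase, and Sfrp1 (r = 0.9991), a secreted Wnt antagonist. Pdgfrl was at 115.5, 90.5 and 30.5 CPM in heart libraries 1 to 3 and had no count in the MLN or the spleen. All 4 genes were highest in heart 1 and lowest in heart 3. The other 3 were picked as closest to Rgs5 over these same libraries, so a shared order was built in and nothing is read from it. Of the 9 points behind each coefficient 6 are at or near 0, and all genes share the same libraries and depth.

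Markers of pericytes and smooth muscle were present in the heart libraries as well, at low levels. The 12 listed markers summed to 36.5 to 145.7 CPM in the heart, 0.33 to 6.24 CPM in the MLN and 0 to 0.356 CPM in the spleen. Of the 12, 3 to 5 were at 0 in a heart library, 9 to 11 in an MLN library and 11 or 12 in a spleen library. The PDGF receptor gene Pdgfrb, one of these markers, was at 6.6, 6.64 and 3.01 CPM in heart libraries 1 to 3 and at 3.12 CPM in MLN 3. Cspg4, the pericyte proteoglycan NG2, was at 0.88, 2.16 and 2.42 CPM in the same heart libraries. The channel genes Kcnj8 and Abcc9, of cardiac pericytes, were at 6.63 and 32.9 CPM in heart 1, at 11.7 and 23.5 CPM in heart 2 and at 0 and 0.294 CPM in heart 3, and both were at 0 in all MLN and spleen libraries. Acta2, smooth muscle actin, was at 85.8, 37.3 and 5.80 CPM in heart libraries 1 to 3 and at 0 elsewhere. Notch3 and Cnn1 were at 0 in all 3 heart libraries, and the smooth muscle myosin gene Myh11 was at 0.824 CPM in heart 1 and at 0 in heart 2 and heart 3. Of the list 7 genes were tested, and 0 were called by edgeR in any of the 3 comparisons. Of all genes 1.38% were called in heart against MLN, 0.789% in heart against spleen and 0% in MLN against spleen. An unadjusted edgeR p below 0.05 was found for 3 in heart against MLN, 5 in heart against spleen and 3 in MLN against spleen. Of all genes 15.5%, 13.6% and 5.75% had one in the same order. Abcc9 and Acta2 had no lymphoid count, so they passed the filter on low counts only through the heart. Of the lymphoid libraries, Pdgfrb was read in MLN 3 alone and Cspg4 in spleen 3 alone. Nothing is therefore read from these counts of markers. Fibroblast markers summed to 19730, 2519 and 4461 CPM in heart libraries 1 to 3, and to at most 16.5 CPM in a lymphoid library. The part of any of these cells in the level of Rgs5 was not tested.

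**Figure D1:**
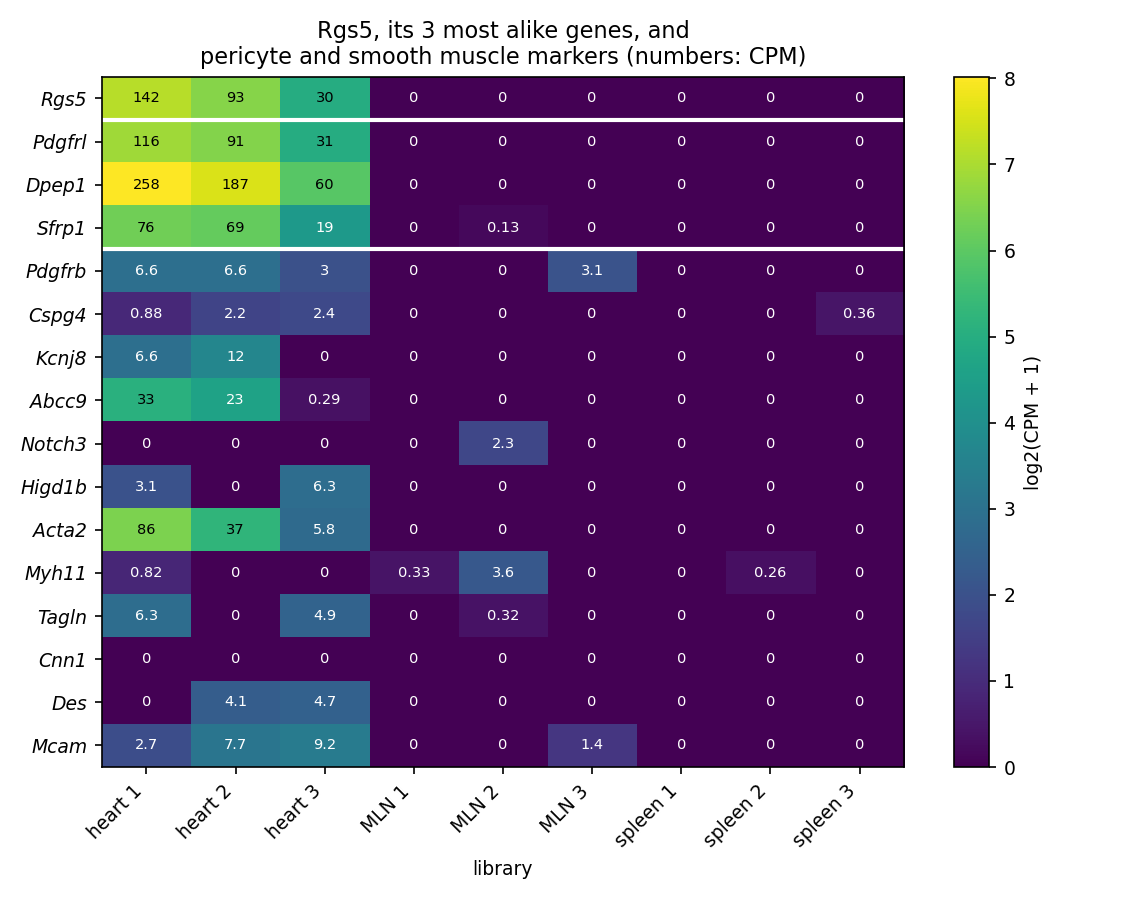
Rgs5, the 3 genes most like it and the 12 pericyte and smooth muscle markers (rows) in the 9 libraries (columns, heart then MLN then spleen); colour gives log2(CPM + 1) and the printed number the level in CPM. Rgs5 and the 3 genes like it are highest in heart 1 and lowest in heart 3, an order built in because the 3 were picked as most like Rgs5. Notch3 and Cnn1 are at 0 in all 3 heart libraries.

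The promoter windows of 3 members are shown because their genes are the one read in the heart alone (Rgs5), the most abundant in every organ (Rgs10) and the next most abundant per kilobase of transcript (Rgs2). Sequences are from RefSeq on GRCm38.p6, run 5′ to 3′ on the gene's strand, and span 250 bases before to 50 bases after the start. Capitals mark GC boxes, GGGCGG on either strand. The windows are chr1:169655251-169655550 (plus strand) for Rgs5, chr7:128418123-128418422 (minus strand) for Rgs10 and chr1:144004100-144004399 (minus strand) for Rgs2.
Rgs5: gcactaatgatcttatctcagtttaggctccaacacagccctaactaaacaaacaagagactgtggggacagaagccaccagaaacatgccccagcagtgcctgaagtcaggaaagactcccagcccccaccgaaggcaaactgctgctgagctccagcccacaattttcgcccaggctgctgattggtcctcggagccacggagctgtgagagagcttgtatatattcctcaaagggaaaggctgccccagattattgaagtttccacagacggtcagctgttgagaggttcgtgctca
Rgs10: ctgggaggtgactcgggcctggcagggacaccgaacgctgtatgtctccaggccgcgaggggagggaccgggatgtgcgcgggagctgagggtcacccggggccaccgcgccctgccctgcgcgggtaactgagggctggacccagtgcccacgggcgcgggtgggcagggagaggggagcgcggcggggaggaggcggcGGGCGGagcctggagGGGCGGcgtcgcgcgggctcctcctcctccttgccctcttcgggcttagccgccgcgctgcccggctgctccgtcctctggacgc
Rgs2: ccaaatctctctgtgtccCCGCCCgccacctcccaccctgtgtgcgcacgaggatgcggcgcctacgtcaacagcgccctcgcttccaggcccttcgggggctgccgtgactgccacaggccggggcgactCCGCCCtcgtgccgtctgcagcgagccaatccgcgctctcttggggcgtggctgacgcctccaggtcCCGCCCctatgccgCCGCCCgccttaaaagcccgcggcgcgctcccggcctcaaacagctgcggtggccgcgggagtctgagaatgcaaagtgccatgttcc

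Of the 9 members, 6 have an entry in that promoter table. The windows of Rgs10, Rgs2 and Rgs5 had 76.0%, 70.0% and 52.3% G and C, against a median of 52.7% over 32851 promoters. GC boxes numbered 2 in Rgs10, 4 in Rgs2 and 0 in Rgs5, and 35.7% of all promoters held at least 1. No TATAAA (13.6% of promoters), TGANTCA (7.81%), cyclic AMP response element (1.79%), CArG box (1.63%) or NF-kB site (8.46%) was found in these 3 windows on either strand.

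Rgs10 was the most abundant member in every organ and its mean was lowest in the heart. Rgs10 (ENSMUSG00000030844, chromosome 7, 128373621 to 128418758) encodes a short R12 protein that acts on Gi and is common in immune cells. It was at 1092, 449 and 815 CPM in heart libraries 1 to 3, at 2861, 2676 and 1549 CPM in the MLN and at 2085, 1940 and 828 CPM in the spleen. Every heart library lay below every MLN library, while heart and spleen overlapped. The library that stood apart, heart 2, MLN 3 or spleen 3, was the lowest of its organ. The mean of heart libraries was 785 ± 323 CPM against 2362 ± 710 CPM for MLN libraries (SD, n = 3 each), a log2 difference of -1.59 (SE 0.50). That difference did not pass (adjusted p = 0.152, edgeR quasi-likelihood F test, adjusted over all genes), nor did the test over all organs (adjusted p = 0.316, edgeR). The DESeq2 Wald test on the same counts gave -1.495 with an adjusted p = 0.0318, the sole call among 18 alternatives, whose adjusted p ran from 0.0318 to 0.380. Against the spleen mean of 1618 ± 688 CPM, the log2 difference of the heart was -1.04. Without heart 2, MLN 3 and spleen 3 the log2 difference was -1.52 against the MLN and -1.07 against the spleen.

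The gene most like Rgs10 was Trbc2, a constant segment of the T cell receptor beta chain (r = 0.984 over 9 libraries), followed by the ribosomal protein gene Rpl18 (r = 0.978) and the small GTPase gene Rac1 (r = 0.975). Trbc2 was at 546, 310 and 439 CPM in heart libraries 1 to 3, at 1412, 1241 and 962 CPM in the MLN and at 1134, 1126 and 537 CPM in the spleen. Its heart to MLN difference was -1.48 on the log2 scale (SE 0.40, edgeR adjusted p = 0.107). The ratio of Rgs10 to Trbc2, chosen after these values were seen, averaged 1.77 ± 0.286 in the heart, 1.93 ± 0.287 in the MLN and 1.70 ± 0.151 in the spleen (SD, n = 3 each). The ranges of this ratio, 1.45 to 2 in the heart, 1.61 to 2.16 in the MLN and 1.54 to 1.84 in the spleen, overlapped for every pair of organs. Trbc2 was picked as the closest of 7341 genes over these same libraries, so a steady ratio was built in and nothing is read from it. The summed level of 9 Treg and T cell markers was 1901 to 2758 CPM in the heart, 4112 to 6323 CPM in the MLN and 4611 to 5487 CPM in the spleen, with none of the 9 at 0. The ratio of Rgs10 to the sum of these 9 markers was 0.163 to 0.429 in the heart. In the MLN it was 0.377 to 0.457 and in the spleen 0.155 to 0.452. Of these 9, Ikzf2, which encodes Helios, alone passed the edgeR test and fell in the heart against both organs. Of all genes 0.283% fell so against the MLN and 0.175% against the spleen. Ikzf2 was at 229 to 350 CPM in the heart, 936 to 2093 CPM in the MLN and 1077 to 1710 CPM in the spleen. The part of these T cell genes in the level of Rgs10 was not tested.

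**Figure D2:**
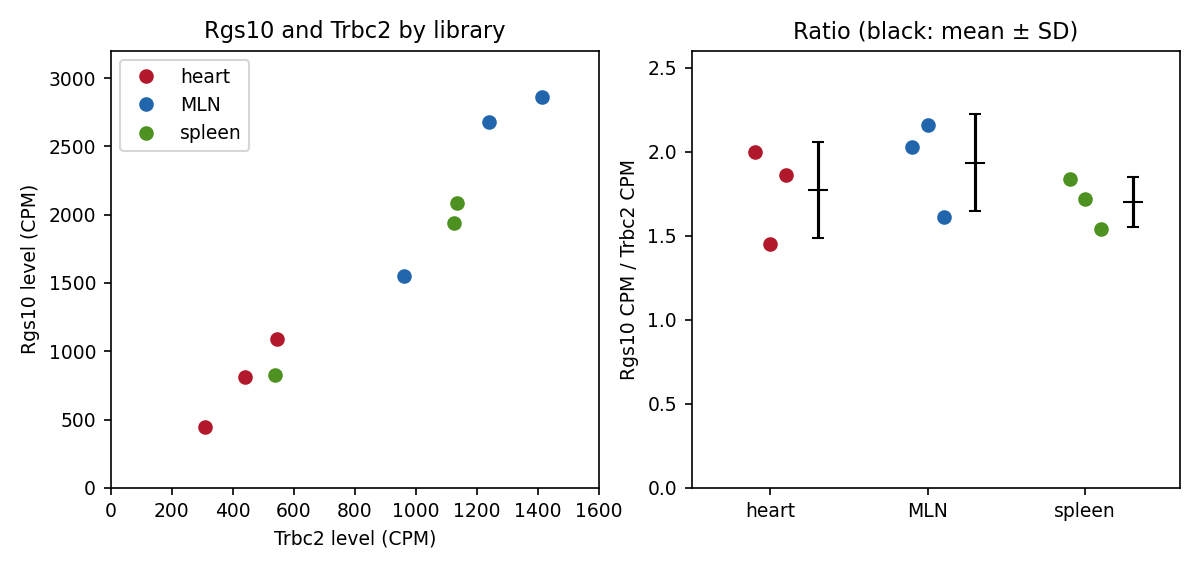
Left, the level of Rgs10 against that of Trbc2 in CPM, 1 point per library, coloured by organ; right, the ratio of both levels per library, with mean ± SD in black. The heart libraries lie at the low end of both genes with spleen 3, and the ratios of the 3 organs overlap. Trbc2 was picked as the gene most like Rgs10 in these libraries, so a steady ratio was built in.

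Rgs19 was the other member whose mean was lowest in the heart. Rgs19 (ENSMUSG00000002458, chromosome 2, 181688419 to 181693977), first described as a partner of the Gi alpha subunit encoded by Gnai3, was at 27.8, 17.2 and 30.5 CPM in heart libraries 1 to 3. The MLN libraries had 63.3, 50.6 and 29.0 CPM and the spleen libraries 41.8, 63.1 and 59.8 CPM. Each heart library was below each spleen library, and heart 3 was above MLN 3. The heart mean of 25.2 ± 7.05 CPM against the MLN mean of 47.6 ± 17.3 CPM gave a log2 difference of -0.92 (SE 0.44, edgeR adjusted p = 0.367). Its log2 difference from the spleen mean of 54.9 ± 11.4 CPM was -1.12. Qdpr (r = 0.939), Mtx1 (r = 0.925) and Suclg2 (r = 0.917) were the genes most like Rgs19. The ratio of Rgs19 to Trbc2, which was picked for its likeness to Rgs10, was 0.0509 to 0.0695 in the heart, 0.0301 to 0.0448 in the MLN and 0.0369 to 0.111 in the spleen. Its ratio to the summed Treg and T cell markers was 0.00624 to 0.0161, 0.00705 to 0.0101 and 0.00907 to 0.0115 in the same order. The part of these T cell genes in the level of Rgs19 was not tested.

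Rgs14 (ENSMUSG00000052087, chromosome 13, 55369732 to 55384687), the other R12 member, carries binding sites for Ras-like GTPases beside its RGS domain. It was at 1.71, 41.8 and 6.20 CPM in heart libraries 1 to 3, at 3.83, 14.3 and 15.3 CPM in the MLN and at 12.3, 21.8 and 95.2 CPM in the spleen. Its highest values were those of heart 2 and spleen 3, and the organs overlapped. The log2 difference was 0.57 for heart against MLN (SE 1.20, edgeR adjusted p = 0.918) and -1.95 for MLN against spleen (SE 1.24, edgeR adjusted p = 1). Without heart 2 the first turned to -1.495, and without spleen 3 the second was -0.61. The genes most like it over the libraries were B4galnt1 (r = 0.970), Necap2 (r = 0.966) and Atp13a1 (r = 0.959).

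Rgs1, Rgs2 and Rgs18 lie together on chromosome 1. Rgs2 (143999338 to 144004161), Rgs13, Rgs1 (144242296 to 144249242), Rgs21 and Rgs18 (144752683 to 144775435) follow each other on the minus strand, with 134492, 64923, 267405 and 185015 bases between neighbours and 0 other protein-coding genes in those gaps. All are R4 genes, and they were read very unequally. Rgs1 and Rgs2 were among the 3 most abundant members per kilobase in every organ, while Rgs21 had no count in any of the 9 libraries.

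Rgs1, which restrains chemokine responses of lymphocytes and is high in T cells that stay in tissues, was at 263, 112 and 408 CPM in heart libraries 1 to 3. The MLN libraries had 295, 318 and 92.7 CPM and the spleen libraries 171, 163 and 86.3 CPM. In each organ the lowest library was the one that stood apart, and the organs overlapped. Means of 261 ± 148 CPM (heart) and 235 ± 124 CPM (MLN) gave a log2 difference of 0.15 (SE 0.60, edgeR adjusted p = 0.963). The heart exceeded the spleen by 0.90 and the MLN exceeded it by 0.75 on the log2 scale (MLN against spleen SE 0.61, edgeR adjusted p = 1). Its nearest gene by pattern was Fam103a1 (r = 0.933), then the mitochondrially encoded mt-Atp8 (r = 0.932) and Sptssa (r = 0.923).

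Rgs2 acts mainly on Gq, rises on activation in many cells and limits vessel contraction. It was at 374, 244 and 223 CPM in heart libraries 1 to 3, at 233, 257 and 96.6 CPM in the MLN and at 333, 439 and 169 CPM in the spleen. The organs overlapped throughout. The log2 difference was 0.52 for heart against MLN (SE 0.49, edgeR adjusted p = 0.756) and -0.68 for MLN against spleen (SE 0.49, edgeR adjusted p = 1), and -0.16 for heart against spleen. The genes nearest to it were Nln (r = 0.910), Ttc39b (r = 0.899) and Arf4 (r = 0.882).

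Rgs18, an RGS protein of platelets, megakaryocytes and myeloid cells, was at 42.6, 20.3 and 89.3 CPM in heart libraries 1 to 3. It was at 29.2, 4.66 and 2.91 CPM in the MLN and at 0.55, 38.4 and 4.81 CPM in the spleen. The heart mean of 50.8 ± 35.2 CPM was the highest, yet MLN 1 and spleen 2 lay above heart 2. The heart to MLN log2 difference was 2.05 (SE 1.44, edgeR adjusted p = 0.608) and the heart to spleen difference 1.798. Without MLN 1 the first was 3.74, and without spleen 2 the second was 4.27. The 9 macrophage and monocyte markers summed to 5482 to 10390 CPM in the heart, 229.9 to 745 CPM in the MLN and 910 to 2328 CPM in the spleen. In the heart against the MLN 5 of the 9 rose (Cd14, C1qb, Cd68, C1qa and Lyz2, edgeR adjusted p below 0.05), where 1.10% of all genes did. Against the spleen 1 of the 9, Cd68, rose, where 0.614% of all genes did. Of 6 platelet markers, Pf4 was at 595, 284.5 and 305 CPM in heart libraries 1 to 3 and at most at 4.65 CPM elsewhere. Ppbp was at 7.05, 8.46 and 77.2 CPM in the same heart libraries and at most at 2.25 CPM elsewhere. Gp1ba, Gp9, Itga2b and Treml1 were at 0 in 1 or more of the heart libraries. By edgeR 0 of the 4 platelet genes tested were called in the heart contrasts, where 1.38% (MLN) and 0.789% (spleen) of all genes were. The part of these cells in the level of Rgs18 was not tested. The genes most like Rgs18 were Zfx (r = 0.921), Pde8a (r = 0.914) and Eea1 (r = 0.913).

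The remaining R4 members were low. Rgs16 (chromosome 1, 153740349 to 153745468), which is induced in activated T cells, was at 2.87, 11.4 and 1.48 CPM in heart libraries 1 to 3, at 0.58, 11.2 and 3.20 CPM in the MLN and at 6.35, 6.76 and 18.8 CPM in the spleen. Heart 2 and spleen 3 were again the highest of their organs. The heart to MLN log2 difference of Rgs16 was 0.07 (SE 1.21, edgeR adjusted p = 0.993). An antisense gene model, Gm28513, shares 236 bases of exon with Rgs16, and the counting strand is not given, so its reads are uncertain.

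Rgs3 (chromosome 4, 62559847 to 62704001), which exists in long and short forms and acts on Gi and Gq, was at 11.2, 6.08 and 4.09 CPM in heart libraries 1 to 3. The MLN libraries had 1.08, 5.32 and 1.19 CPM and the spleen libraries 0, 0.62 and 20.1 CPM, so 1 spleen library held nearly all of the spleen reads. The log2 difference for heart against MLN was 1.496 (SE 2.08, edgeR adjusted p = 0.856). For heart against spleen it was 0.05, and 4.52 without spleen 3.

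**Figure D3:**
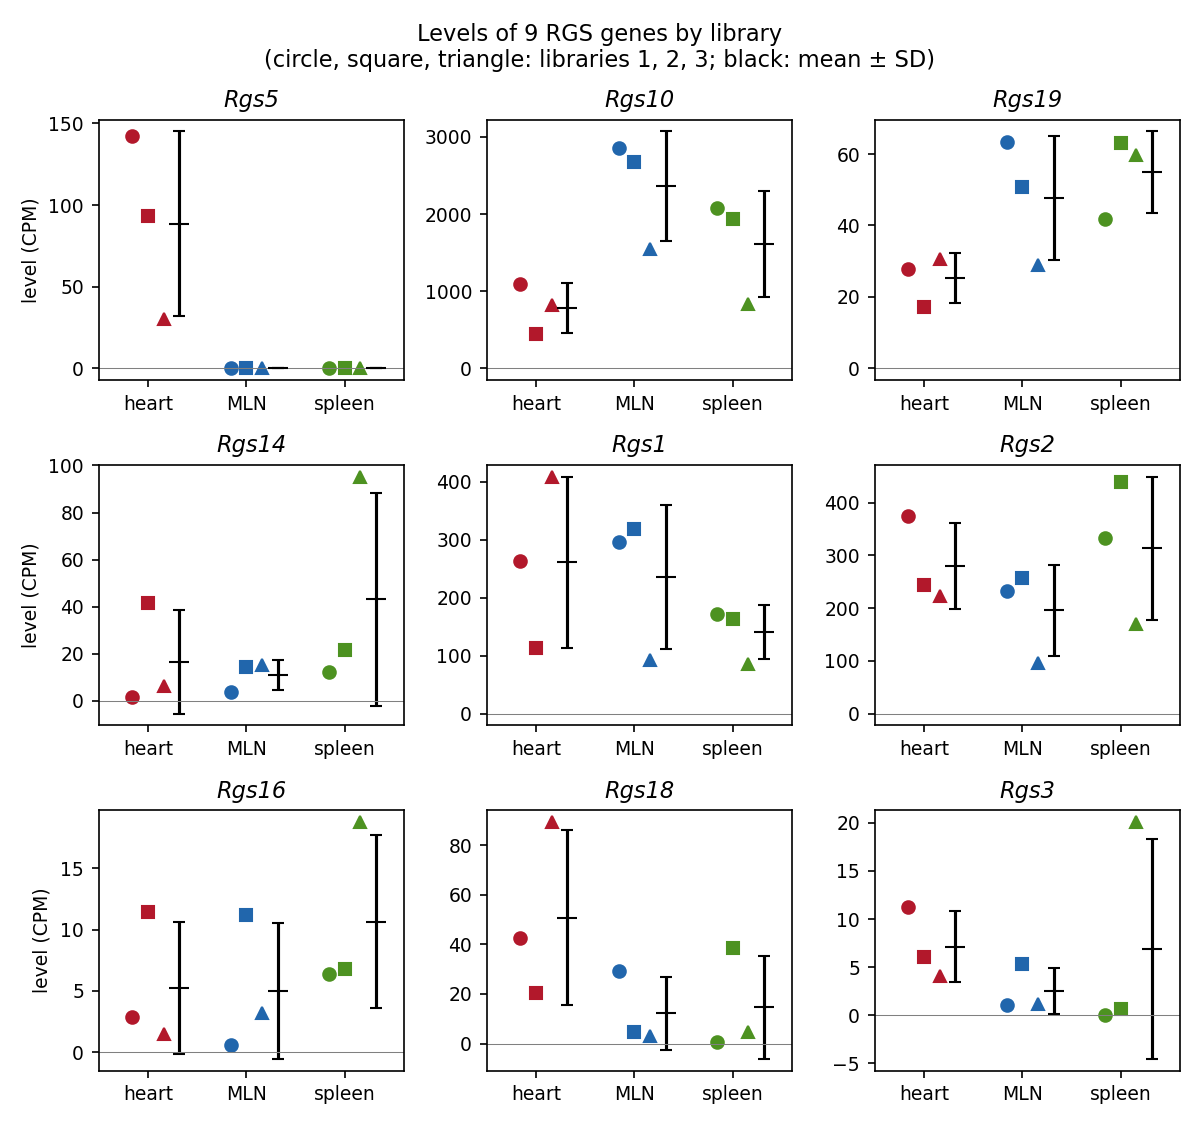
Levels in CPM of the 9 RGS genes, 1 panel each with its own axis, by organ; coloured symbols are libraries 1, 2 and 3, and black marks give mean ± SD over 3 libraries. Rgs5 is at 0 in all MLN and spleen libraries, and Rgs10 in the heart lies below all MLN libraries.

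Per kilobase of the longest coding transcript, Rgs10 led in all organs, with 892 CPM per kb in the heart, 2684 in the MLN and 1839 in the spleen, and its range did not meet that of the next gene. Rgs2 followed at 92.8 CPM per kb in the heart, 64.7 in the MLN and 104 in the spleen, then Rgs1 at 67.9, 61.3 and 36.5 in the same organs. The ranges of Rgs2 and Rgs1 met in the heart and the MLN and were apart in the spleen. In the heart the order went on with Rgs18 (25.0), Rgs5 (21.6), Rgs19 (16.7), Rgs14 (7.03), Rgs16 (2.25) and Rgs3 (1.52 CPM per kb), and each overlapped its next neighbour. In the MLN Rgs19 (31.5) came before Rgs18 (6.03 CPM per kb) without overlap, and Rgs5 closed the order at 0. As a share of the summed CPM per kb of the 9 members, Rgs10 took 74.1 to 82.1% in heart libraries, 93.4 to 95.4% in MLN libraries and 84.5 to 92.6% in spleen libraries. Rgs1 took 4.25 to 8.99% in the heart, 1.31 to 2.54% in the MLN and 1.73 to 2.02% in the spleen, and Rgs2 took 6.24 to 11.7%, 1.73 to 2.61% and 4.30 to 5.89% in the same order. Rgs10, Rgs1 and Rgs2 shares in the heart did not meet those of either lymphoid organ, but shares of one sum move against each other, and these were not tested.

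Counts over the group are given beside the share of all genes. All 9 passed the filter on low counts, Rgs5 only through the heart. Against the MLN, 1 of 9 passed the edgeR test in the heart, Rgs5, which was chosen for its pattern, where 1.38% of 16609 genes did (1.10% higher and 0.283% lower in the heart). Of the other 8 members 0 passed, and 1 of 8 (Rgs10) had an unadjusted edgeR p below 0.05, where 15.5% of all genes did. By DESeq2 2 of 9 passed, where 16% of its 17433 genes with an adjusted p did, and by limma-voom 1 of 9, where 8.02% of genes did. The edgeR call of Rgs5 was lost without any 1 of the heart or MLN libraries, which left 0 of 9. The choice of Rgs5, and its passing the filter only through the heart, built its calls in, and nothing is read from them. Libraries of heart and MLN did not overlap for Rgs5 and Rgs10, 2 of 9, where 26.2% of all genes did not. Against the spleen, the contrast that chose the group, 1 of 9 passed by edgeR (0.789% of genes, 0.175% lower in the heart), by DESeq2 (13.9%) and by limma-voom (6.87%), and Rgs5 and Rgs19 did not overlap (19.3% of genes, 6.90% lower in the heart), from which nothing is read. Between MLN and spleen 0 of 9 passed, where 0% of genes passed by edgeR, 4.97% by DESeq2 and 0.0181% by limma-voom. By edgeR 0 of 9 had an unadjusted p below 0.05 (5.75% of genes), and 0 of 9 were without overlap (9.08% of genes, 4.56% lower in the MLN). In the edgeR test for any difference among organs 0 of 8 members other than Rgs5 passed and 1, Rgs10, had an unadjusted p below 0.05, where 1.78% and 12.9% of genes did. Without Rgs5, the median log2 difference of the members was 0.33 for heart against MLN (0.12 over all genes), -0.59 for heart against spleen (0.02) and -0.47 for MLN against spleen (0 over all genes). The MLN to spleen log2 differences not yet given were 0.55 for Rgs10, -0.20 for Rgs19, -1.09 for Rgs16 (-0.39 without spleen 3 and -2.49 without MLN 2), -0.25 for Rgs18 and -1.45 for Rgs3 (edgeR adjusted p = 1 for each). Of these 8 members, 6 lay above 0 in the heart against the MLN (53.5% of all genes), 3 in the heart against the spleen (50.9%) and 2 in the MLN against the spleen (47.5%). The comparisons share libraries, so their values are not independent of each other.

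**Figure D4:**
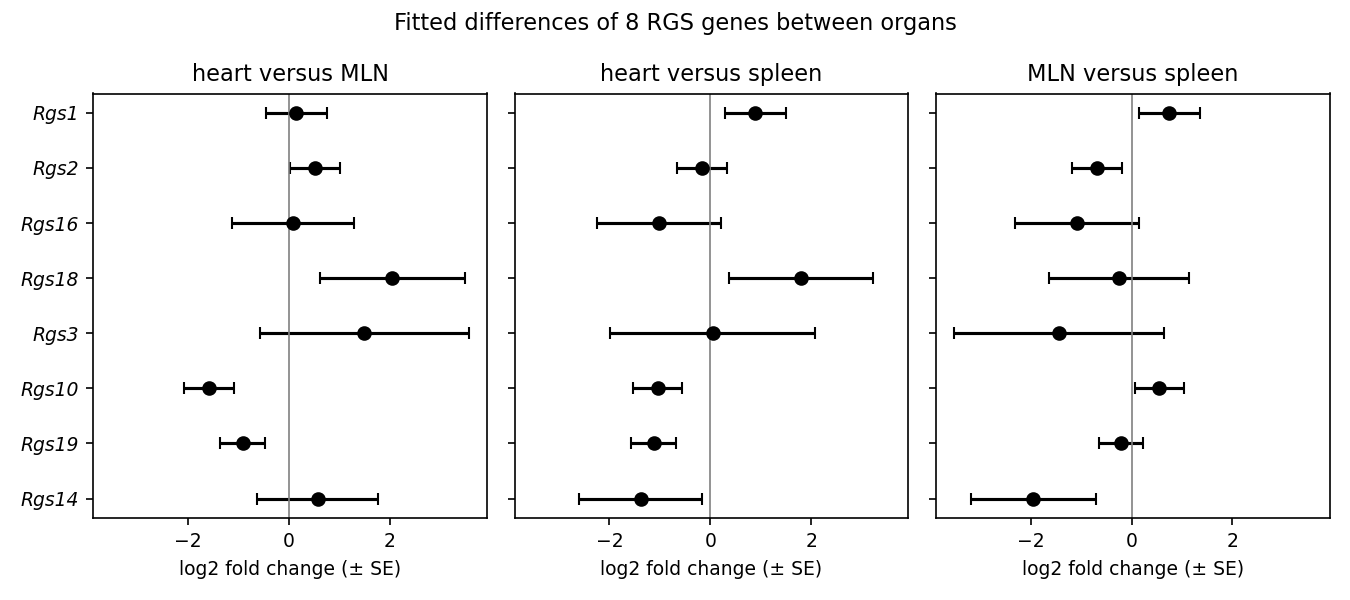
Fitted log2 fold changes (edgeR, points) with SE (bars) for the 8 members other than Rgs5 in the 3 comparisons; right of 0 is higher in the organ named first. Rgs10 lies at -1.59 ± 0.50 in the heart against the MLN, and Rgs3, Rgs14, Rgs16 and Rgs18 have the widest bars.

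Of the 12 other RGS genes, 4 passed the filter, Rgs9, Rgs12, Rgs13 and Rgs17, and 0 were called by edgeR in any comparison. Of all genes 1.38% were called in heart against MLN, 0.789% in heart against spleen and 0% in MLN against spleen. Rgs17, an RZ protein like Rgs19, was at 9.91, 3.79 and 10.2 CPM in heart libraries 1 to 3. It was at 0.115, 0 and 0 CPM in the MLN and had no count in the spleen. Rgs17 passed the filter on low counts only through the heart, so a difference was built into its being tested. It was also added after its values were seen, so nothing is read from its tests in the heart. Rgs13, an R4 protein of germinal centre B cells and mast cells, switched between libraries of one organ, with 76.1, 4.58 and 0 CPM in heart libraries 1 to 3. It was at 61.8 to 108 CPM in the MLN and at 0, 55.9 and 0 CPM in the spleen. Mast cell markers summed to 8226, 5032 and 12.6 CPM in heart libraries 1 to 3, to 6.44 to 55.6 CPM in the MLN and to 4.60, 41.3 and 0.619 CPM in the spleen. B cell markers summed to 0.379 to 16.3 CPM in the heart, 329 to 1919 CPM in the MLN and 989.5 to 1211 CPM in the spleen, and the part of either in the level of Rgs13 was not tested. Rgs9, an RGS protein of photoreceptors and striatum, was at 10.4 ± 5.47 CPM in the heart, 3.57 ± 4.76 CPM in the MLN and 6.96 ± 7.14 CPM in the spleen (SD, n = 3 each). Rgs7 was read in heart 3 alone, at 27.7 CPM, and Rgs4, the gene next to Rgs5 at a distance of 45663 bases, at 3.81 and 0.455 CPM in heart 1 and heart 2 alone. Rgs6, Rgs21 and Rgs22 had no count in any library.

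Counts of called genes among the G proteins that RGS proteins act on, and in the lists after them, stand beside low shares of all genes. By edgeR 1.38% of all genes were called in the heart against the MLN and 0.789% in the heart against the spleen. Of 15 alpha subunit genes, 10 were tested, and 4 of these had an unadjusted edgeR p below 0.05 in each heart contrast. Of all genes 15.5% had one against the MLN and 13.6% against the spleen. Of the 10, 1 was called higher in the heart against both lymphoid organs. This was Gnai1, a Gi alpha subunit, at 22.4, 46.8 and 24.1 CPM in heart libraries 1 to 3 and with no count elsewhere (at least 2362-fold above the MLN, edgeR adjusted p = 0.0349, and at least 2130-fold above the spleen, edgeR adjusted p = 0.0415). Gnai1 passed the filter on low counts only through the heart, so a difference was built into its being tested. Among 18 alternatives these calls were kept in 10 and 9, and each was lost when any 1 library of the organs compared was dropped. Gna13, a G12/13 subunit, was at 355 ± 53.2 CPM in the heart, 127 ± 13.0 CPM in the MLN and 192 ± 92.1 CPM in the spleen (SD, n = 3 each; heart against MLN edgeR adjusted p = 0.101). Gnai3, the partner of Rgs19, was at 332 ± 42.0, 253 ± 21.3 and 196 ± 49.8 CPM in the same organs (edgeR adjusted p = 0.654 against the MLN and 0.315 against the spleen). The list's median log2 difference was 1.17 for heart against MLN and 0.85 for heart against spleen. Of 17 beta and gamma subunit genes, 12 were tested and 0 called, with medians of 1.09 and 1.11. The most abundant, Gng2 and Gng5, were at 641 to 1181 and 73.0 to 334 CPM in heart libraries, 676 to 702 and 81.1 to 125.6 CPM in the MLN and 208 to 963 and 44.1 to 143 CPM in the spleen.

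Among 24 Gi-coupled trafficking receptors of leukocytes, 23 were tested and Ccr2, a receptor for the chemokine Ccl2, was the 1 called. It rose in the heart against the MLN by 2.84 and against the spleen by 2.70 on the log2 scale (SE 0.44 each, edgeR adjusted p = 0.0308 and 0.0398). Among 18 alternatives the calls were kept in 10 and 5. The first was lost without any 1 heart or MLN library and the second without any 1 of the 9 libraries. The part of Tregs or of other cells in the level of Ccr2 was not tested. The list's medians were 1.00 and 1.08. Ccr7 and Gpr183, its most abundant members, were at 217 ± 232 and 216.5 ± 60.7 CPM in heart libraries, 1031 ± 371 and 259.9 ± 86.9 CPM in the MLN and 1154 ± 286 and 252 ± 37.1 CPM in the spleen (for edgeR, adjusted p from 0.209 to 0.951 for the heart). Of 15 Gq-coupled vasoactive receptors 7 were tested and 0 called, and the thrombin receptor F2r was at 22.2 to 32.4 CPM in the heart, 11.5 to 30.4 CPM in the MLN and 18.1 to 33.3 CPM in the spleen. The nucleotide receptor P2ry6 was at 22.1, 65.0 and 83.3 CPM in heart libraries 1 to 3, at 0 to 0.1 CPM in the MLN and at 0.123 to 22.0 CPM in the spleen (edgeR adjusted p = 0.095 and 0.739 for the heart).

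Of 19 effector enzymes, 14 were tested and 0 called. Their most abundant member, the phospholipase gene Plcb1, which Gq activates, was at 125, 143 and 173 CPM in heart libraries 1 to 3 and had no count in the MLN (at least 11150-fold, edgeR adjusted p = 0.186). In the spleen it was at 129 CPM in spleen 3 and at 0 in the other libraries. Pik3r5, a regulatory subunit of the PI3 kinase that beta and gamma subunits activate, was at 60.5 to 131 CPM in the heart, 10.3 to 44.0 CPM in the MLN and 23.7 to 92.1 CPM in the spleen. Of 12 further regulators, all tested, Gpsm2, which binds Gi alpha in its GDP form, was called in the heart against the spleen. It was at 11.0, 8.50 and 7.83 CPM in heart libraries 1 to 3, at 20.6, 26.4 and 8.05 CPM in the MLN, and had no count in the spleen (heart at least 623-fold above the spleen, edgeR adjusted p = 0.0238). The call was kept in 10 of 18 alternatives and lost without any 1 heart or spleen library. The receptor kinase Grk2 was at 9.86 to 120 CPM in the heart, 12.6 to 48.0 CPM in the MLN and 13.3 to 90.8 CPM in the spleen. Its relative Grk5 was at 67.1, 112 and 23.9 CPM in heart libraries 1 to 3, at 15.2, 0 and 0 CPM in the MLN and at 0, 0 and 2.13 CPM in the spleen (for edgeR, adjusted p = 0.716 and 0.539 for the heart). Over these 7 lists 82 genes were tested by edgeR. In the heart against the MLN 2 were called (2.44%, against 1.38% of all genes). In the heart against the spleen 3 were called (3.66%, against 0.789%). Of the genes called, Gnai1 had no lymphoid count and passed the filter only through the heart, and Gpsm2 had no spleen count. Each call was lost without any 1 library of the organs compared, so nothing is read from these shares. No set test was run on these shares. Between MLN and spleen, 0 of the 82 genes were called by edgeR, and 6 (7.32%) had an unadjusted p below 0.05, against 5.75% of all genes. DESeq2 called 10 of 87 (11.5%, against 4.97% of all genes) and limma-voom 1 of 82 (1.22%, against 0.0181%).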

How the data were processed

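Read counts per gene, neither normalized nor pooled, were deposited by the authors as a single table with a column for each of 9 libraries. Per the submitters' processing notes, CASAVA 1.8.2, HISAT2, HTSeq 0.6.0 and mm10 were involved. Neither the aligner's version, the strand setting nor the gene annotation is given in the sources used. All columns were read (0 left out). Coordinates and transcript lengths come from GENCODE vM21 (GRCm38), which held 49412 of the 49510 identifiers.

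Genes were filtered with edgeR 4.0.16 in R 4.3.3 (minimum count 10, minimum total 15), which left 16609. Libraries were scaled by TMM, and organ means were estimated in 1 quasi-likelihood fit of the 9 libraries (6 residual degrees of freedom, median biological coefficient of variation 102%). P-values were two-sided and adjusted by Benjamini and Hochberg over all genes, and a gene was called below 0.05. SE is derived from the F statistic. Alternatives used DESeq2 1.42.0, limma 3.58.1 (voom), other scalings and filters, organ pairs alone, and fewer libraries. The fit was tested on simulated data.

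Members, gene lists and tests were chosen with earlier results of these data known. The text names all members, in each pathway list the called genes (at most 3 by fold) and the 2 with the highest mean, fixed markers of pericytes and Tregs, and for each member with a mean of at least 10 CPM the 3 genes most like it. Rgs7, Rgs4, Rgs17, the platelet genes and the ratios to Trbc2 and to the Treg and T cell markers were added after their values were seen. Since PCR copies were not told apart, floors cover counting error only.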

Additional observations from a re-analysis of the deposited data

How the results depend on the processing

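Over the alternatives, in the heart against the MLN and the MLN against the spleen and without Rgs5, 267 log2 differences of members kept their direction and side of the threshold, 1 became a call (Rgs10, heart against MLN, DESeq2) and 20 changed sign. In the heart against the MLN, Rgs1 came to -0.117 with library totals alone, -0.235 without MLN 3 and -0.332 without heart 3. Rgs14 came to -0.153 with limma-voom, -1.495 without heart 2 and -1.175 without heart 2, MLN 3 and spleen 3. Rgs16 came to -0.456 without MLN 1, -0.167 without MLN 3, -1.204 without heart 2 and -1.422 without those 3 libraries. In the MLN against the spleen, Rgs3 came to 2.129 with limma-voom, 0.176 with the replicate block, 3.032 without spleen 3 and 3.355 without the 3 libraries. Rgs18 came to 0.340 with limma-voom, 2.185 without spleen 2, 0.139 without MLN 2 and 0.216 without MLN 3, and Rgs19 to 0.056 without MLN 3 and 0.108 without the 3 libraries. Over the fits without 1 library, the other end of the range was 0.508 for Rgs1, 1.107 for Rgs14 and 1.476 for Rgs16 in the heart against the MLN, and -2.601 for Rgs3, -1.947 for Rgs18 and -0.462 for Rgs19 in the MLN against the spleen. In the heart against the spleen, where no p-values are given for members, 139 of 144 kept their sign. Rgs3 came to -0.455 with library totals, -0.537 without spleen 1, -0.460 without spleen 2 and -0.438 without heart 1, and Rgs2 to 0.187 without spleen 2. The cause was not tested.

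Counts of genes called in the heart against the MLN, the heart against the spleen, the MLN against the spleen and any organ were 2790, 2415, 866 and 1768 with DESeq2 and 1332, 1141, 3 and 1214 with limma-voom. A stricter filter gave 369 and 223 for the heart contrasts, organ pairs alone 548 and 292, and library totals alone 195 for any organ. Without heart 2, MLN 3 and spleen 3 they were 4, 3, 0 and 3. Members called in the heart against the MLN were 2 with DESeq2. Without the 3 libraries 0 members and 0 pathway genes were called in either heart contrast. Pathway genes called in the 3 comparisons were 20, 15 and 10 with DESeq2 and 14, 10 and 1 with limma-voom. There were 6 in the heart against the MLN with pairs alone, and 1 in the heart against the spleen with library totals. With DESeq2 the shares in the heart contrasts were 23% and 17.2% of 87 genes, against 16% and 13.9% of all genes. With limma-voom they were 17.1% and 12.2% of 82, against 8.02% and 6.87%. No set test was run. Leaving out 1 library gave 0 to 249, 0 to 122, 0 to 0 and 1 to 221 genes, 0 to 1, 0 to 1 and 0 to 0 members, and 0 to 3, 0 to 2 and 0 to 0 pathway genes in the same order. The call of Rgs5 against the MLN, built in by its choice, was lost without any 1 heart or MLN library.

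With the replicate block, 0 genes, 0 members and 0 pathway genes were called in either heart contrast, and 0 genes for any organ. The labels do not state whether same-numbered libraries share animals, and correlation between libraries cannot settle it. The 9 same-numbered pairs correlated at -0.127 to 0.114, with 1 above 0.1, while heart 2 and spleen 3 reached 0.239. The median log2 difference of all genes in the heart against the MLN was 0.122 with TMM, 0.218 with DESeq2's size factors in edgeR and -0.103 with library totals; against the spleen it was 0.0239, 0.0779 and -0.243.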
